A study of Mus musculus with 6 samples.

Results

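The genes described here encode potassium channel subunits, both the pore-forming proteins and the auxiliary proteins that bind them. They were taken by name: every row of the deposited gene table whose symbol begins with Kcn, then lower-case letters and a number, leaving out 2 opposite-strand transcripts whose symbols end in os. This gave 96 of 52550 rows. Of these, 93 are protein-coding in GENCODE M21 and 3 (Kcnq1ot1, Kcnmb4os1 and Kcnmb4os2) are antisense RNAs, which are counted apart. Of the 93 subunit genes, 16 were listed at 0 in every library, 59 were above 0 with a mean under 1 FPKM (fragments divided by the length of the transcript and by the size of the mapped library) over the 6 libraries, and 18 reached a mean of 1 FPKM and were tested.

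The left ventricle of C57BL/6J mice was sampled at an age of 12 months, with 3 libraries labelled PKI, the name given to mice overexpressing PGC1alpha, and 3 labelled wild-type (WT). PGC1alpha, encoded by Ppargc1a, is a coactivator of genes for mitochondria and oxidative metabolism. The promoter or locus that drives the overexpression is not given in the sources used here, and the labels do not tie the libraries to separate animals, so a p-value speaks of the spread between libraries only, which may be technical. The deposited Ppargc1a values were 11.6, 11.8 and 11.4 FPKM in libraries labelled PKI and 14.2, 12.8 and 12.4 FPKM in WT libraries (log2 change −0.16, SE 0.07, limma adjusted p = 0.0967; −0.44 with adjusted p = 0.00521 after the scaling described below). The values of Ppargc1a thus did not show the labelled overexpression, and every direction below rests on the labels as given. Whether they count transcripts of the overexpressed copy is not given in the sources used here.

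Potassium channels end the cardiac action potential and hold the resting voltage of the heart muscle cell. Voltage-gated (Kv) channels carry the repolarising currents, which in the mouse ventricle are led by the fast transient outward current, built of Kv4 pores with the calcium-binding subunit KChIP2. Inward rectifiers (Kir) hold the resting voltage, open when G proteins are released by muscarinic receptors, or open when ATP runs low. Tandem-pore (K2P) channels pass a background current, and single-span KCNE proteins change the gating of Kv pores.

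The pair that forms the G protein-gated channel of the heart, Kcnj5 and Kcnj3, and the Kv4 pore gene Kcnd2 were lower in libraries labelled PKI, by 1.72-fold to 2.14-fold. The auxiliary gene Kcne1 was 2.41-fold higher, but it reached the level for testing through the libraries labelled PKI, and its call was lost when genes of any level were tested (limma adjusted p = 0.0754). The remaining 14 tested subunits did not pass the test on the values as deposited. Calls were made on the log2(FPKM + 1) scale where limma, fitted over the 9907 genes that reached 1 FPKM, gave an adjusted p under 0.05. Of all tested genes 39.4% were called, and 1 of the 18 tested subunits (5.56%) rose, beside 36.4% of all tested genes, and 3 (16.7%) fell, beside 2.96% of all tested genes. The median log2 change was −0.10 over the 18 subunits and 0.21 over all tested genes. Over 8 ventricular muscle markers, given below, it was −0.09.

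The median over all tested genes was displaced upwards in libraries labelled PKI, so the scale of the libraries bears on these counts. Genes of the mitochondrial genome with their nuclear copies took 78.0% to 78.2% of the FPKM in libraries labelled PKI and 81.8% to 82.3% in WT libraries. FPKM are relative to the library total. After division by median-of-ratios size factors, called scaled values below, the median change over all tested genes was −0.02. On that scale 0 of 18 subunits were higher by limma (1 at an unadjusted p under 0.05) beside 7.82% of all tested genes, and 10 (55.6%) were lower beside 9.18% (17% in either direction). Counts at an unadjusted p, here and below, have no share over all tested genes beside them, as none was computed. Of these 10, Kcnj11, Kcnj8, Kcnj2 and Kcna7 lost their call when genes of any level were tested (limma adjusted p = 0.05002 to 0.102). The called directions of Kcnj5, Kcnj3 and Kcnd2 were the same on both scales, whereas the call of Kcne1 was lost after scaling (adjusted p = 0.0953).

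**Figure D1:**
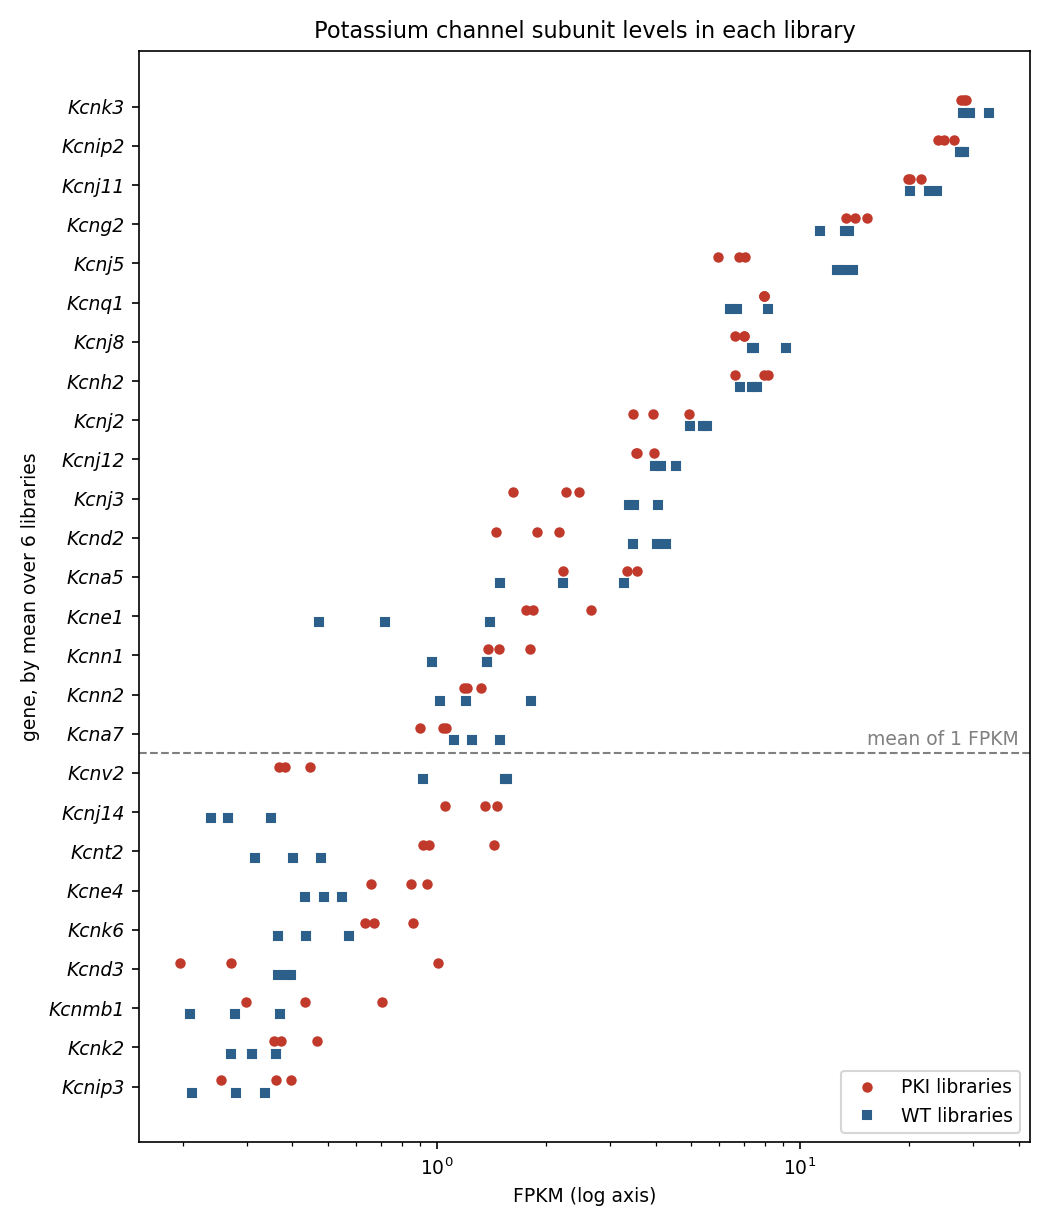
FPKM of 26 subunit genes with the highest means, on a log axis, with 1 point for each library (circles, libraries labelled PKI; squares, WT). Genes above the dashed line reach a mean of 1 FPKM; Kcnj5, Kcnj3, Kcnd2 and Kcnv2 lie lower in every library labelled PKI, while Kcne1, Kcnj14 and Kcnt2 lie higher in each.

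The promoters of the 3 genes that fell are shown because these genes moved in the same direction and a shared short sequence would be looked for there. The sequences are from RefSeq (GRCm38.p6), run 5′ to 3′ on the gene's strand and hold 250 bases before and 50 after the annotated start. Kcnj5 lies at chr9:32344295-32344594 on the minus strand, Kcnj3 at chr2:55435720-55436019 on the plus strand and Kcnd2 at chr6:21215096-21215395 on the plus strand. The RefSeq start of Kcnd2 lies before the GENCODE start given below, so by GENCODE its whole window is upstream of the gene. Capitals mark the GC box GGGCGG, the letters bound by Sp-family factors.
Kcnj5: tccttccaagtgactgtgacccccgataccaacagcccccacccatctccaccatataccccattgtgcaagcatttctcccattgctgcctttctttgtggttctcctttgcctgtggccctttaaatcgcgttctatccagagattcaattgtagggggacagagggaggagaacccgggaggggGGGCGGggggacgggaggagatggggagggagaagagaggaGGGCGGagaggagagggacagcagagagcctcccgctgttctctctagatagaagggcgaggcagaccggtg
Kcnj3: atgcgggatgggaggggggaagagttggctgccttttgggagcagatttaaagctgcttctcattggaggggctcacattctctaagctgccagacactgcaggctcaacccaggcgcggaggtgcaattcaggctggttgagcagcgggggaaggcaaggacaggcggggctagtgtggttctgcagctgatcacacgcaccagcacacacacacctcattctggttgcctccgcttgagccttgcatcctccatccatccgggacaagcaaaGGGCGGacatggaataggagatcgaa
Kcnd2: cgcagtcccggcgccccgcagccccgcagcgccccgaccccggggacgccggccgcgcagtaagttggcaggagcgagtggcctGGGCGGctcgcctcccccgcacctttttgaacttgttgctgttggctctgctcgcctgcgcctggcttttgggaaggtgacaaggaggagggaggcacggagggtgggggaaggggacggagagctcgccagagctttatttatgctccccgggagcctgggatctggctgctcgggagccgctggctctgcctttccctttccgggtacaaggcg

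On both strands, these windows were searched for GGGCGG, for the estrogen-related receptor (ERR) core AAGGTCA, for the Iroquois letters ACANNTGT, for the GATA letters GATAAG and for the TATA letters TATAAA. The GC box was found at 2 places in the Kcnj5 window and at 1 place in each of the Kcnj3 and Kcnd2 windows, and it is held by 35.7% of all 32851 promoter windows in the table. The other 4 motifs were not in these 3 windows. They are held by 4.72% (AAGGTCA), 7.38% (ACANNTGT), 7.44% (GATAAG) and 13.6% (TATAAA) of all windows. Among the 11 tested subunits with a window in the table, Kcna7 held ACANNTGT, and Kcnh2, Kcnip2, Kcnj2 and Kcnn1 also held the GC box.

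Kcnj5 encodes Kir3.4, a pore subunit of the channel that acetylcholine opens to slow the heart. Its values were 5.95, 7.04 and 6.78 FPKM in libraries labelled PKI, against 12.6, 13.1 and 14.0 FPKM in WT libraries. The groups did not overlap. The difference was 2.01-fold lower in PKI (log2 −0.91, SE 0.08, limma adjusted p = 0.000757), and −1.18 after scaling. The gene lies on chromosome 9, bases 32314707 to 32344350 of GRCm38, and its exons overlap no other annotated gene.

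Kcnj3 encodes Kir3.1, which assembles with Kir3.4 in the same channel. It stood at 1.62, 2.26 and 2.47 FPKM in libraries labelled PKI and at 3.49, 3.38 and 4.08 FPKM in WT libraries. All 3 libraries labelled PKI lay under the lowest WT library. The level was 1.72-fold lower (log2 −0.58, SE 0.12, limma adjusted p = 0.0109; scaled log2 −0.80). Of its 5215 exonic bases, 1621 are shared with the antisense gene Gm26794. The library kit does not mark strand, so reads of the pair cannot be told apart there. Gm26794 averaged 0.284 ± 0.117 FPKM in libraries labelled PKI and 1.15 ± 0.177 FPKM in WT libraries (SD, n = 3 each).

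Within a library, the ratio of Kcnj5 to Kcnj3 does not depend on the library's scale. It was 3.66, 3.12 and 2.75 in libraries labelled PKI and 3.63, 3.88 and 3.44 in WT libraries. These ranges overlapped. The sum of both subunits was 7.57, 9.31 and 9.25 FPKM in libraries labelled PKI, against 16.1, 16.5 and 18.1 FPKM in WT libraries. Both the ratio and the sum take in the stretch that Kcnj3 shares with Gm26794.

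Both G protein-gated subunits are more abundant in atrial than in ventricular muscle, and atrial marker genes varied between libraries. Of 8 atrial markers tested, 2 were higher by limma (Nppa and Pam, which ventricles also express), beside 36.4% of all tested genes. The test called 0 lower (beside 2.96%), with 2 lower at an unadjusted p under 0.05. None of the 8 was at 0. Their summed level ran from 718 to 1560 FPKM in libraries labelled PKI and from 307 to 528 FPKM in WT libraries, most of it Nppa. The median log2 change over the 8 was −0.54 as deposited and −0.73 on scaled values. On scaled values 2 were called higher (beside 7.82%) and Stard10 was called lower (limma adjusted p = 0.0409, beside 9.18%). Myl7, the atrial regulatory light chain, was at 6.61, 14.8 and 81.9 FPKM in libraries labelled PKI and at 74.3, 40.5 and 91.3 FPKM in WT libraries (adjusted p = 0.144). Replicates 1 and 2 labelled PKI had less Myl7 than any WT library. Replicate 3 labelled PKI had more Myl7 than WT replicate 2, with 6.78 FPKM of Kcnj5 in that PKI library and 13.1 FPKM in that WT library. In the same libraries Kcnj3 was at 2.47 FPKM in PKI replicate 3 and 3.38 FPKM in WT replicate 2. The part of atrial tissue in the difference between groups was not tested.

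**Figure D2:**
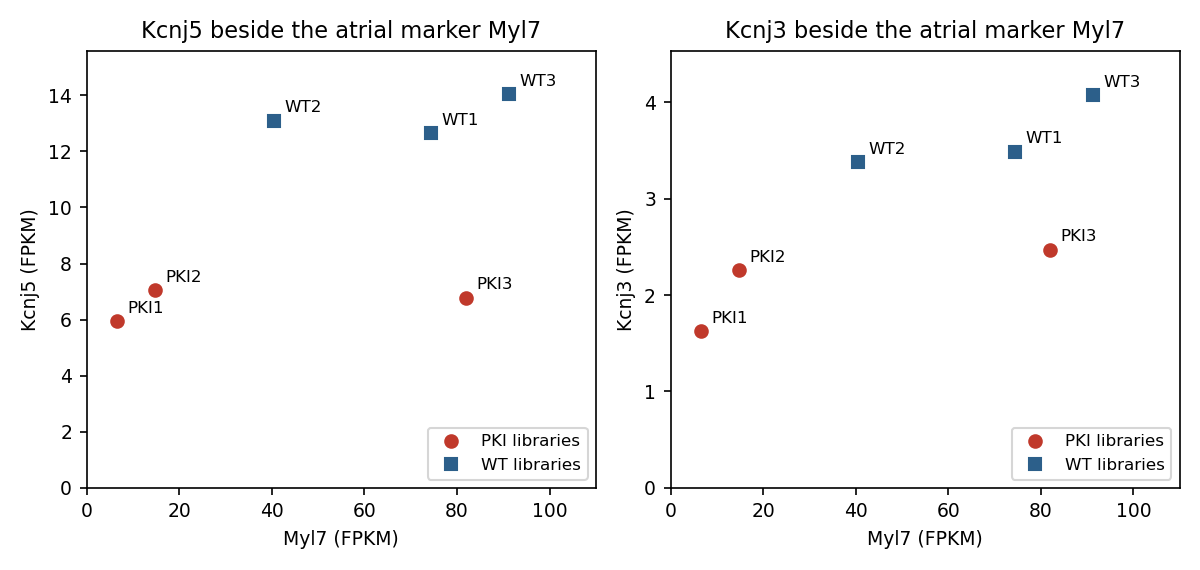
FPKM of Kcnj5 (left) and Kcnj3 (right) on the vertical axis against FPKM of the atrial light chain gene Myl7 on the horizontal axis, 1 point per library. The library labelled PKI with 81.9 FPKM of Myl7 has less Kcnj5 and less Kcnj3 than each WT library; the other two PKI libraries have less Myl7 than any WT library.

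The receptors and G proteins upstream of this channel were called at a share near that of all genes. Of 13 tested genes of muscarinic and adenosine coupling, 5 rose (beside 36.4% of all tested genes) and 1 fell (beside 2.96%). The median log2 change was 0.23, beside 0.21 over all tested genes. On scaled values 1 was higher (beside 7.82%) and 1 lower (beside 9.18%). The one that fell was Chrm2, the muscarinic receptor of heart muscle. It had 12.8, 13.7 and 13.1 FPKM in libraries labelled PKI and 17.7, 17.3 and 17.9 FPKM in WT libraries, with no overlap (log2 −0.39, limma adjusted p = 0.00398; scaled −0.67). The inhibitory G protein genes Gnai2 and Gnai3 rose on the values as deposited (log2 0.46 and 0.48), and neither passed after scaling (0.17 and 0.24). Gnao1 rose on both scales (0.57 and 0.39). Rgs4, which speeds the closing of the G protein signal, rose as deposited (log2 0.45) and did not pass after scaling (0.22).

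Kcnd2 encodes Kv4.2, a pore of the fast transient outward current. Its values were 2.16, 1.88 and 1.45 FPKM in libraries labelled PKI, against 4.04, 3.46 and 4.28 FPKM in WT libraries. The groups were well apart, with the highest PKI value under the lowest WT value. The gene was 2.14-fold lower (log2 −0.80, SE 0.11, limma adjusted p = 0.00321; scaled log2 −1.02). It lies on chromosome 6, bases 21215503 to 21729805 of GRCm38.

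Kcnip2 encodes KChIP2, the calcium-binding partner that Kv4 channels need in mouse ventricle. Its level was 26.6, 24 and 24.9 FPKM in libraries labelled PKI and 27.8, 28.2 and 27.6 FPKM in WT libraries. The groups did not overlap but lay close together. The change of −0.14 (SE 0.06, limma adjusted p = 0.0993) did not pass as deposited, and on scaled values it was −0.43 and passed (adjusted p = 0.00538). The ratio of Kcnd2 to Kcnip2 within a library was 0.0815, 0.0784 and 0.0583 in libraries labelled PKI, against 0.146, 0.123 and 0.155 in WT libraries. These ratios did not overlap.

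Other subunits of the transient outward current were under 1 FPKM. Kcnd3, which encodes Kv4.3, was at 1.01, 0.272 and 0.196 FPKM in libraries labelled PKI and at 0.365, 0.385 and 0.397 FPKM in WT libraries. Replicate 1 labelled PKI stood far above the other two of its group. Kcna4, the Kv1.4 pore of the slow transient current, averaged 0.242 ± 0.146 FPKM in libraries labelled PKI and 0.204 ± 0.0193 FPKM in WT libraries (SD, n = 3 each). Kcnip3, a related calcium-binding protein, averaged 0.337 ± 0.0742 FPKM in libraries labelled PKI and 0.276 ± 0.062 FPKM in WT libraries (SD, n = 3 each).

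The delayed rectifier pores showed no called change. Kcnh2, the ERG pore of the rapid delayed rectifier, had 7.98, 6.60 and 8.14 FPKM in libraries labelled PKI and 7.38, 6.83 and 7.60 FPKM in WT libraries, which overlapped (log2 0.05, 95% interval −0.17 to 0.26; −0.21 after scaling). Kcnq1, the Kv7.1 pore of the slow delayed rectifier, had 7.94, 7.98 and 7.97 FPKM in libraries labelled PKI and 6.41, 8.17 and 6.72 FPKM in WT libraries. WT replicate 2 lay above all 3 PKI values. The log2 change was 0.15 (95% interval −0.06 to 0.37; −0.11 after scaling). Kcnq1 shares 121 exonic bases with the antisense RNA Kcnq1ot1, which was at 0.0155 ± 0.00182 FPKM in libraries labelled PKI and 0.00813 ± 0.00167 FPKM in WT libraries (SD, n = 3 each).

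Kcne1, the single-span subunit that slows Kv7.1 into the slow delayed rectifier current, passed the test as deposited and lost its call in several alternatives. It had 1.84, 2.66 and 1.76 FPKM in libraries labelled PKI and 0.474, 1.40 and 0.719 FPKM in WT libraries. The groups did not overlap, though WT replicate 2 came near the PKI values. The difference was 2.41-fold (log2 0.74, SE 0.19, limma adjusted p = 0.0232; scaled 0.57). The WT mean was 0.866 FPKM, so the gene reached the level for testing through the libraries labelled PKI. The call was lost with no minimum level (adjusted p = 0.0754), and without PKI replicate 2 (adjusted p = 0.0640), WT replicate 1 (0.0532) or WT replicate 3 (0.0712), within a range of 0.0106 to 0.115 over 15 alternatives.

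The ratio of Kcne1 to its pore Kcnq1 was 0.231, 0.333 and 0.220 in libraries labelled PKI and 0.0740, 0.172 and 0.107 in WT libraries. The ranges did not overlap. Among other KCNE genes, Kcne4, an inhibitor of Kv7.1 currents, had 0.939, 0.660 and 0.846 FPKM in libraries labelled PKI and 0.550, 0.490 and 0.435 FPKM in WT libraries, without overlap as deposited and with overlap after scaling. Kcne2 was listed at 0 in every library.

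**Figure D3:**
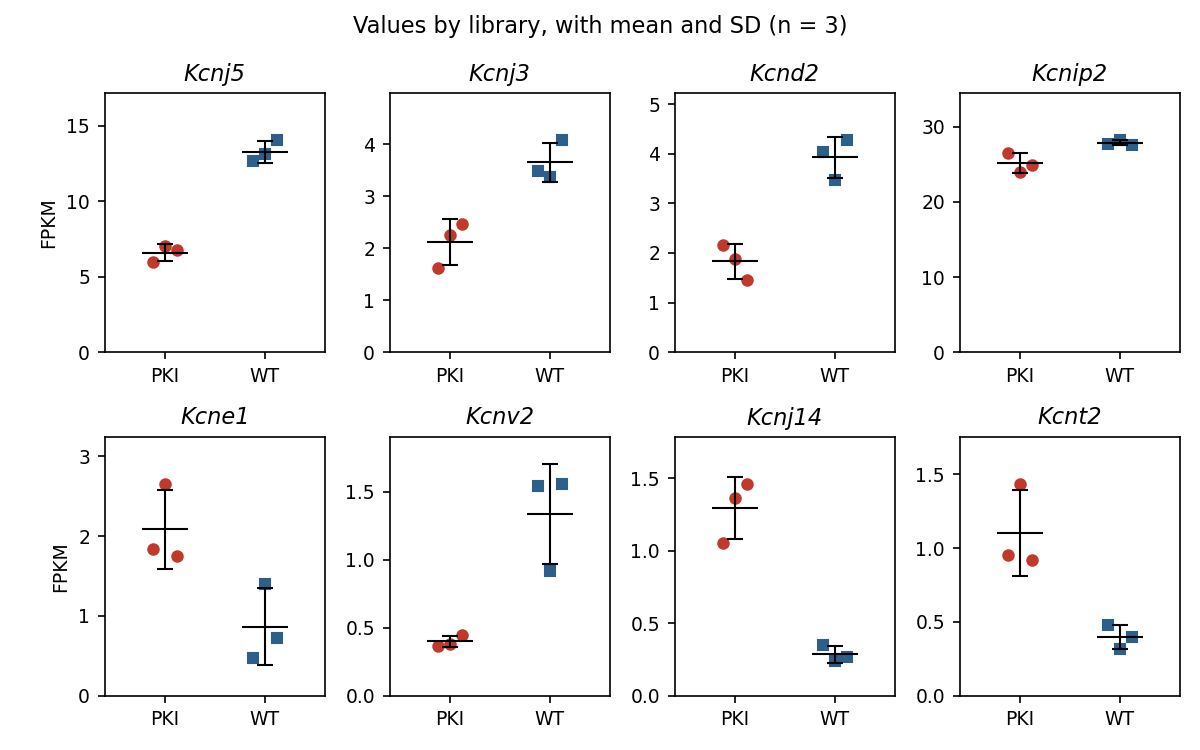
FPKM by library for 8 subunit genes, with circles for libraries labelled PKI, squares for WT, a long bar for the mean and whiskers for the SD (n = 3 each); each axis starts at 0. Kcnj5, Kcnj3, Kcnd2, Kcnip2 and Kcnv2 are lower in every library labelled PKI, and Kcne1, Kcnj14 and Kcnt2 are higher.

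Kcna5, encoding the Kv1.5 pore of an ultrarapid current, was at 3.34, 2.23 and 3.56 FPKM in libraries labelled PKI and 1.5, 3.28 and 2.23 FPKM in WT libraries (log2 0.30, 95% interval −0.21 to 0.80). The groups overlapped. Kcna7, encoding Kv1.7, had 1.04, 1.06 and 0.898 FPKM in libraries labelled PKI and 1.11, 1.5 and 1.25 FPKM in WT libraries. It passed on scaled values (log2 −0.19 as deposited, adjusted p = 0.117, and scaled −0.35, adjusted p = 0.0370). The mean over libraries labelled PKI was 0.998 FPKM, so Kcna7 reached the level for testing through the WT libraries. Its scaled call was lost when genes of any level were tested (limma adjusted p = 0.102). With scaling to the nuclear total Kcna7 did not pass (limma adjusted p = 0.0600), and it passed in 2 of 15 alternatives.

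The silent subunits Kcng2 and Kcnv2 form no channel alone and join other Kv pores. Kcng2 was the highest voltage-gated gene of the set at 15.3, 13.4 and 14.2 FPKM in libraries labelled PKI and 11.4, 13.6 and 13.3 FPKM in WT libraries, which overlapped (log2 0.15, adjusted p = 0.188; −0.12 after scaling). Kcnv2 had 0.367, 0.381 and 0.447 FPKM in libraries labelled PKI and 1.54, 0.914 and 1.56 FPKM in WT libraries. Every PKI value was under every WT value, 3.36-fold lower by the means. Its mean over all libraries was 0.868 FPKM, just under the minimum, while Kcna7 at 1.14 FPKM was just over it. When genes of any level were tested, Kcnv2 passed (log2 −0.73, limma adjusted p = 0.0233, and 0.0277 on scaled values).

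The classical inward rectifier current of ventricle is carried by Kir2 channels, and neither of its main genes passed as deposited. Kcnj2, encoding Kir2.1, had 3.93, 4.95 and 3.46 FPKM in libraries labelled PKI and 4.97, 5.55 and 5.39 FPKM in WT libraries. PKI replicate 2 almost met WT replicate 1. The log2 change of −0.31 (SE 0.11) missed the threshold as deposited (limma adjusted p = 0.0632), passed without PKI replicate 2 (0.0184) and was −0.56 on scaled values (adjusted p = 0.0147). Kcnj12, encoding Kir2.2, had 3.96, 3.55 and 3.54 FPKM in libraries labelled PKI and 4.13, 3.98 and 4.54 FPKM in WT libraries (log2 −0.16, adjusted p = 0.136; scaled −0.39, adjusted p = 0.0154).

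Kcnj14, encoding Kir2.4, was higher at a low level, with 1.05, 1.36 and 1.46 FPKM in libraries labelled PKI against 0.348, 0.239 and 0.266 FPKM in WT libraries. Every PKI value was far above every WT value. The means differed 4.54-fold, and the gene passed when genes of any level were tested (log2 0.83, limma adjusted p = 0.00754, and 0.0158 on scaled values). The ratio of Kcnj14 to Kcnj2 was 0.268, 0.275 and 0.422 in libraries labelled PKI and 0.0701, 0.0431 and 0.0493 in WT libraries. Kcnj4, encoding Kir2.3, had 0.301 ± 0.0380 FPKM in libraries labelled PKI and 0.148 ± 0.149 FPKM in WT libraries (SD, n = 3 each), with WT replicate 3 listed at 0. Summed, the 4 Kir2 genes had 9.21, 10.2 and 8.80 FPKM in libraries labelled PKI and 9.59, 10.1 and 10.2 FPKM in WT libraries, which overlapped.

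The ATP-sensitive channel joins Kir6 pores to sulfonylurea receptors. Kcnj11, the Kir6.2 pore of heart muscle, had 21.6, 20.1 and 19.8 FPKM in libraries labelled PKI and 20.1, 23.8 and 22.6 FPKM in WT libraries, which overlapped (log2 −0.11, adjusted p = 0.306; scaled −0.39, adjusted p = 0.0208). Kcnj8, the Kir6.1 pore best known from vascular muscle and pericytes, had 7.01, 7.01 and 6.62 FPKM in libraries labelled PKI and 7.38, 9.16 and 7.46 FPKM in WT libraries (log2 −0.19, adjusted p = 0.135; scaled −0.45, adjusted p = 0.0174). The receptor gene Abcc9, encoding SUR2, had 19.9, 25.5 and 18 FPKM in libraries labelled PKI and 25.7, 29.0 and 26.0 FPKM in WT libraries, just short of overlap (log2 −0.35, limma adjusted p = 0.0637; scaled −0.63, adjusted p = 0.0138). Abcc8, encoding SUR1, was at log2 0.14 (adjusted p = 0.175; scaled −0.07).

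Over all 15 inward rectifier genes the summed level was 45.7, 47.0 and 44.7 FPKM in libraries labelled PKI and 53.4, 59.8 and 58.6 FPKM in WT libraries. Without Kcnj5 and Kcnj3 the sums were 38.1, 37.7 and 35.5 FPKM in libraries labelled PKI and 37.3, 43.3 and 40.5 FPKM in WT libraries, and they overlapped. All 6 tested inward rectifiers had a negative log2 change as deposited, where the lower quartile over all tested genes was 0.07. Of the 6, 2 were called lower (beside 2.96% of all tested genes). On scaled values all 6 were called lower (beside 9.18%). When genes of any level were tested on that scale, Kcnj11, Kcnj8 and Kcnj2 did not pass (limma adjusted p = 0.0542, 0.0508 and 0.05002).

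Kcnk3, encoding the acid-sensitive background channel TASK-1, had the highest level of the set. It was at 27.8, 28.3 and 28.7 FPKM in libraries labelled PKI and 28.2, 33.2 and 29.5 FPKM in WT libraries. The groups overlapped as deposited (log2 −0.09, adjusted p = 0.334) and parted on scaled values (−0.38, adjusted p = 0.0173). Other tandem-pore genes were under 1 FPKM. Kcnk6 averaged 0.722 ± 0.12 FPKM in libraries labelled PKI and 0.459 ± 0.105 FPKM in WT libraries, and the stretch-activated Kcnk2 averaged 0.398 ± 0.0605 FPKM in libraries labelled PKI and 0.313 ± 0.0444 FPKM in WT libraries (SD, n = 3 each).

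The calcium-activated SK pores Kcnn1 and Kcnn2 did not pass. Kcnn1 was at 1.38, 1.48 and 1.80 FPKM in libraries labelled PKI and 1.38, 0.972 and 1.38 FPKM in WT libraries (log2 0.19, adjusted p = 0.183; scaled 0.02), where the groups lay side by side without overlap as deposited and overlapped after scaling. Kcnn2 was at 1.19, 1.21 and 1.32 FPKM in libraries labelled PKI and 1.02, 1.82 and 1.2 FPKM in WT libraries (log2 −0.05, adjusted p = 0.758). Kcnt2, a sodium-activated pore, had 0.954, 1.44 and 0.918 FPKM in libraries labelled PKI and 0.480, 0.316 and 0.401 FPKM in WT libraries. It was 2.77-fold higher without overlap, and passed when genes of any level were tested (log2 0.58, limma adjusted p = 0.0310), but not on scaled values (0.0780).

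**Figure D4:**
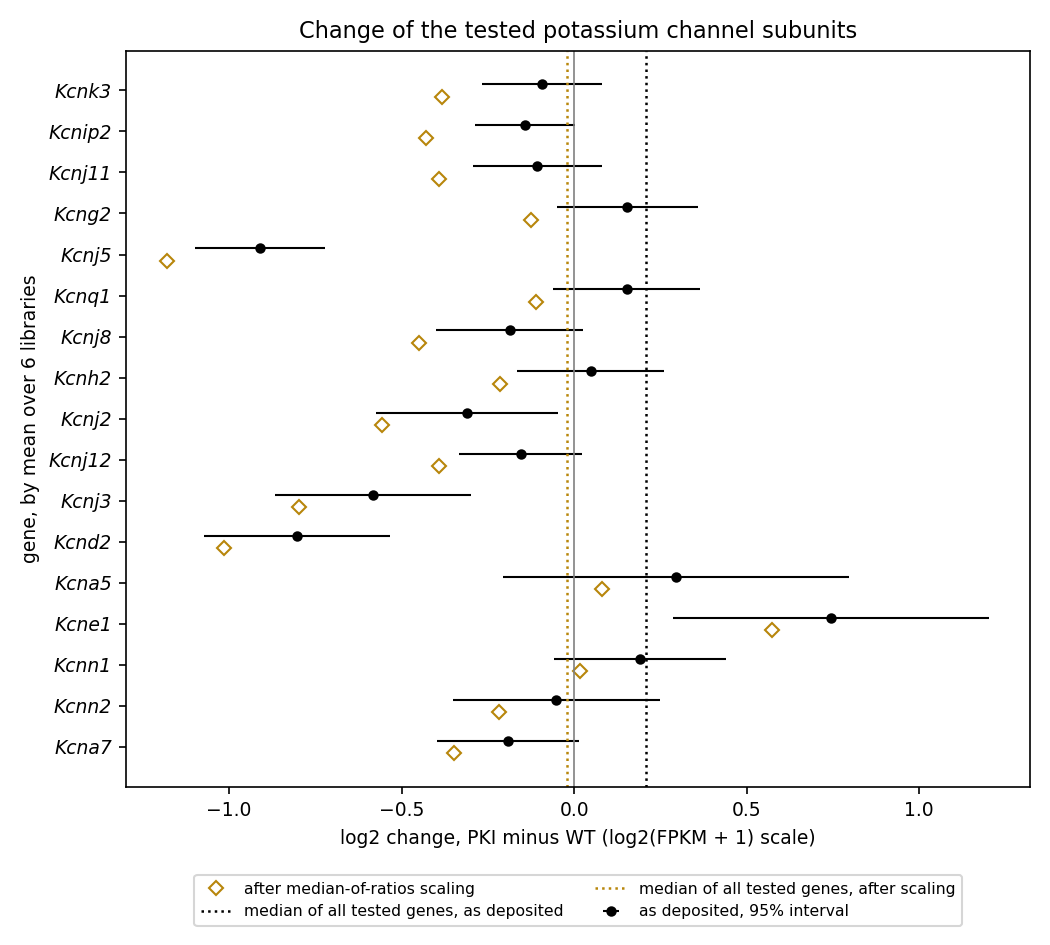
Log2 change (PKI minus WT, log2(FPKM + 1) scale) of 17 tested subunits, as deposited with its 95% interval (filled circles) and after median-of-ratios scaling (open diamonds). Dotted lines give the median over all 9907 tested genes, 0.21 as deposited and −0.02 after scaling; 15 of the 17 filled circles lie left of the first line and 14 of the 17 diamonds left of the second.

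The 59 subunit genes above 0 but under 1 FPKM lay between the groups as follows. In 11 all PKI values were above all WT values (beside 15.2% of all 14798 genes in this range), in 1, Kcnv2, all were below (beside 2.3%), and 47 overlapped. On scaled values 9 were above (beside 8.88%) and 3 below (beside 4.66%). Of the 18 tested subunits 2 were above (beside 51.3% of all tested genes) and 8 below (beside 4.53%) as deposited. On scaled values 1 was above (beside 16.6%) and 11 below (beside 20.7%). When genes of any level were tested, 12.1% of 24705 genes were called. Of these 59 genes, 5 were then called higher (11.1% of all genes) and 1 lower (0.935%). On scaled values 1 was higher (2.31%) and 1 lower (2.41%), with 4.72% called in all. The shares called are over genes of every level, not only those under 1 FPKM. Besides Kcnj14, Kcnt2 and Kcnv2, the genes called as deposited included Kcnk13 and Kcne3. Kcnk13 averaged 0.214 ± 0.0496 FPKM in libraries labelled PKI and 0.0909 ± 0.0117 FPKM in WT libraries (SD, n = 3 each). Kcne3 averaged 0.158 ± 0.0149 FPKM in libraries labelled PKI and 0.0511 ± 0.0232 FPKM in WT libraries (SD, n = 3 each). Neither passed on scaled values (limma adjusted p = 0.148 and 0.0689). Kcnmb1, the auxiliary subunit of the large-conductance channel of smooth muscle, averaged 0.480 ± 0.207 FPKM in libraries labelled PKI and 0.286 ± 0.0814 FPKM in WT libraries (SD, n = 3 each), and the groups overlapped.

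In whole tissue, fewer heart muscle cells and less RNA per cell cannot be told apart. Ventricular muscle markers (Myh6, Myl2, Myl3, Tnnt2, Tnni3, Actc1, Ryr2 and Pln) were tested in 8 of 8. As deposited 1 rose (beside 36.4% of all tested genes) and 3 fell (beside 2.96%), and 7 fell on scaled values (beside 9.18%). The sum of the 8 ran from 10609 to 11576 FPKM in libraries labelled PKI and from 10299 to 11035 FPKM in WT libraries. The median log2 change of these markers was −0.09 as deposited and −0.38 on scaled values, beside −0.10 and −0.37 over the 18 subunits. Of 8 fibroblast markers 7 rose (beside 36.4%). Their sum was 213 to 255 FPKM in libraries labelled PKI and 82.6 to 119 FPKM in WT libraries. All 8 macrophage markers rose (beside 36.4%), with a sum of 212 to 229 FPKM in libraries labelled PKI and 70.1 to 108 FPKM in WT libraries. The part of these shifts in the channel values was not tested.

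Read against the summed ventricular muscle markers, a comparison chosen after the values were seen and free of the libraries' scale, Kcnj5 had 5.14, 6.64 and 5.98 FPKM per 10000 FPKM of markers in libraries labelled PKI and 11.8, 11.9 and 13.6 in WT libraries. On the same measure Kcnd2 was 2.25-fold lower and Kcnj3 1.80-fold lower, both without overlap. Kcne1 was 2.34-fold and Kcnj14 4.36-fold higher, also without overlap. Among the members called lower only on scaled values, Kcnip2, Kcnj8, Kcnj12 and Kcna7 were lower without overlap, by 1.16-fold to 1.34-fold, while Kcnk3, Kcnj11 and Kcnj2 overlapped. The share of all genes that part without overlap on this measure was not computed.

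Markers of other cell types differed less or were scarce. Of 8 endothelial markers 3 rose as deposited (beside 36.4% of all tested genes) and 1 fell on scaled values (beside 9.18%). The endothelial sum was 85.0 to 92.5 FPKM in libraries labelled PKI and 74.8 to 78.2 FPKM in WT libraries. Of 7 tested smooth muscle and pericyte markers 4 rose as deposited (beside 36.4%). The sum of all 8 was 184 to 221 FPKM in libraries labelled PKI and 118 to 147 FPKM in WT libraries. Conduction system markers summed to 2.28 to 3.75 FPKM in libraries labelled PKI and 2.83 to 3.49 FPKM in WT libraries, with Isl1 at 0. Lymphocyte markers summed to at most 0.658 FPKM in any library, and neuron and Schwann cell markers to at most 2.16 FPKM, with Th and Chat at 0.

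Other genes of potassium handling had medians near those of all genes. Of 16 tested genes of other potassium transport 7 rose, beside 36.4% of all tested genes. At an unadjusted p under 0.05 by limma 11 were higher and 0 lower, a level at which the share of all genes was not computed. The median log2 change over the 16 was 0.26, beside 0.21 over all tested genes. On scaled values 3 were higher (beside 7.82%) and 2 lower (beside 9.18%), with a median of 0.01, beside −0.02. Atp1b1, the beta subunit of the sodium-potassium pump, had 82.7, 82.0 and 80.4 FPKM in libraries labelled PKI and 56.6, 47.1 and 46.4 FPKM in WT libraries (log2 0.70, limma adjusted p = 0.0018; scaled 0.41). Slc12a4, a potassium-chloride cotransporter, rose by a similar amount (log2 0.71; scaled 0.45). Tmem38a, the TRIC-A cation channel of the sarcoplasmic reticulum, was at log2 −0.06 as deposited and −0.36 on scaled values, where it passed.

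Among 12 tested partners of potassium channels 3 rose (Cttn, Calm2 and Cav3), beside 36.4% of all tested genes. At an unadjusted p under 0.05 by limma 1 was lower. The median over the 12 was 0.18, beside 0.21 over all tested genes. On scaled values 1 was higher, Cttn (beside 7.82%), and 2 were lower, Abcc9 and Calm3 (beside 9.18%). Among 14 tested transcription factors of channel genes 2 rose (beside 36.4%) and 1 fell (beside 2.96%). Their median was 0.05, beside 0.21, and −0.17 on scaled values, beside −0.02, with 1 higher and 3 lower on that scale (beside 7.82% and 9.18%). The one that fell was Klf15, a regulator of Kcnip2 in mouse heart, with 6.85, 6.75 and 7.06 FPKM in libraries labelled PKI and 8.64, 11.0 and 8.42 FPKM in WT libraries (log2 −0.38, limma adjusted p = 0.0239; scaled −0.65). Irx5, a repressor of Kcnd2 in mouse ventricle, overlapped at 1.82, 1.95 and 1.67 FPKM in libraries labelled PKI and 1.88, 1.82 and 1.67 FPKM in WT libraries. Tbx20 rose on both scales (log2 0.63 and 0.36).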

How the data were processed

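The deposited table gives 1 FPKM value for each Ensembl gene and library. The submitters' processing notes name CASAVA, Bowtie 0.12.2 and genome build mm9 without a role or order. How the FPKM were made, and with which annotation, is not given in the sources used here. Sequencing depth is unknown, so counting intervals are absent. Groups follow the sample titles. A second deposited gene table held identical values.

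Genes averaging 1 FPKM or more were tested on log2(FPKM + 1) by limma 3.58.1 (R 4.3.3), two-sided, using a variance trend and no block, and p-values were adjusted over all tested genes by Benjamini-Hochberg. Every adjusted p is from limma. The log2 scale shrinks changes of low genes. Folds divide mean FPKM. Scaled values are FPKM divided by median-of-ratios size factors (1.10 to 1.13 in libraries labelled PKI and 0.898 to 0.922 in WT). The fit was tested on simulated data.

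The members and gene lists were chosen with earlier results of these data known. All tested members were named, with the 10 next by mean and subunits that pair with tested members, apart from a few that are not reported here. List genes were named among the 4 with the smallest p. Rgs4, Abcc8, Abcc9, Calm3, Irx5, Tmem38a, the single marker genes and the subunits called only without a minimum level were chosen after their values were seen. Positions come from GENCODE M21 (GRCm38) by gene identifier, with no conversion from mm9.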

Additional observations from a re-analysis of the deposited data

How the results depend on the processing

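With median-of-ratios scaling 775 of all tested genes were higher and 909 lower, with scaling to the nuclear total 1019 and 603, and with quantile normalisation 753 and 762, against 3609 and 293 as deposited. The subunits called were 0 higher and 10 lower, 0 and 9, and 0 and 10 under these 3 settings, against 1 and 3. At a minimum mean of 5 FPKM 1739 genes were higher and 186 lower, of them 0 and 1 subunits, since only 8 subunits remained. Without a minimum 5 subunits were higher. Leaving out 1 library in turn gave 2179 (without WT replicate 3) to 3162 genes higher and 165 to 263 lower; without PKI replicate 3 these were 2325 and 173. For the subunits it gave 0 to 2 higher and 3 to 4 lower. Kcnj5 passed in the same direction in 16 of 16 alternatives, and Kcnj3 and Kcnd2 in 15 of 15 each. Kcne1 passed in 8 of 15. Of 263 values of the named tested subunits under alternatives, 221 kept direction and side, 23 newly passed, 7 no longer passed and 12 turned direction; the cause was not tested.

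The values that turned were those of genes that did not pass as deposited. Under median-of-ratios scaling, scaling to the nuclear total and quantile normalisation, Kcng2 was at −0.12, −0.044 and −0.10, Kcnq1 at −0.11, −0.036 and −0.10 and Kcnh2 at −0.21, −0.14 and −0.20. Kcnn1 was at −0.011 after quantile normalisation. Without 1 library in turn, Kcnh2 ran from −0.00077 (without PKI replicate 3) to 0.13 and Kcnn2 from −0.15 to 0.088 (without WT replicate 2).

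With the replicate number as a block, 2625 genes were higher and 224 lower, with 1 and 3 subunits. Same-numbered libraries correlated in their deviations from the group means at −0.10, 0.0012 and 0.05. Differently numbered libraries correlated at −0.13 to 0.11. The labels do not say whether the numbers pair the libraries, and these values do not settle it.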
